A study of Mus musculus with 8 samples.

Results

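The general machinery of mRNA decay was followed through 45 genes, listed by their known function. They encode the RNA exosome, the exonucleases that work from the 5′ end, the decapping enzyme and its activators, the LSM ring, the deadenylases and the factors of nonsense-mediated decay. A gene was read from its transcript cluster, the set of array probes that stands for 1 transcribed locus, where that cluster was annotated to the gene alone. Of several such clusters the one with the highest mean over the arrays was used. Of the 45 genes, 41 had a cluster of their own among the 30701 genes measured in this way. The clusters of Cnot1, Cnot3 and Edc4 were shared with another gene, and for Upf3b no cluster was found under its symbol. The 41 genes comprised 8 of the exosome core, 3 exosome nucleases, 2 exonucleases that start at the 5′ end, 5 decapping genes, 7 of the LSM ring, 11 deadenylase genes and 5 of nonsense-mediated decay.

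Most mRNAs are degraded after their poly(A) tail has been shortened by the PAN2-PAN3 and CCR4-NOT deadenylases. The body of the message is then digested from the 3′ end by the exosome, or it loses its cap to DCP2, helped by the LSM ring, and is digested from the 5′ end by XRN1. Nonsense-mediated decay, led by the helicase UPF1, sends mRNAs with premature stop codons into the same enzymes. In the early mouse embryo this machinery removes the mRNAs stored in the oocyte while the embryo's own genome is switched on.

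Transcript levels came from 8 whole-transcript Affymetrix arrays. Each held RNA of 1 pool of 100 mouse embryos (B6C3F1 x CD1), lysed at the late 2-cell stage. The 4 groups of 2 pools were non-manipulated embryos, which stayed in the incubator, embryos injected with Trim21 mRNA, embryos injected with Trim21 mRNA and an antibody against COPS3 (AbCam 79698), and embryos with that antibody alone. The ubiquitin ligase TRIM21 grips antibodies and takes the protein they hold to the proteasome, and COPS3 belongs to the COP9 signalosome, which strips NEDD8 from cullins. The ooplasm of zygotes was injected at the mid-pronuclear stage and the embryos were cultured for 28 h more, while their age label reads 24 h of culture. The injection protocol in the labels covers the Trim21 mRNA group and the group with Trim21 mRNA plus antibody, and the antibody-alone group is known from its sample titles and the design text. All embryos shared the same cross, hormone stimulation and culture medium, and none received a control antibody. The labels record normal cleavage in both groups without antibody, and stunted cleavage with many zygotes left undivided in both groups with it. Each group was treated on a day of its own within 1 week and both of its pools came from that day, so day and group cannot be told apart. The p-values below measure only the spread between pools of the same day. In pools, fewer cells of a kind and less RNA per cell cannot be told apart either.

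The arrays carried the transcripts their labels name. Trim21 stood between 9.77 and 10.40 on the log2 scale on the 4 arrays with injected Trim21 mRNA and between 5.65 and 6.76 on the other 4, while Cops3 mRNA, which the method does not target, stood between 8.85 and 10.00 in all pools. Cops3 was called lower with Trim21 mRNA plus antibody than with Trim21 mRNA (−0.755). With antibody alone against non-manipulated embryos it differed by −0.655, which was not called. Array medians ran from 4.75 to 5.29, and on 3 arrays (both with Trim21 mRNA plus antibody, and antibody alone replicate 1) between 136 and 169 clusters sat at the array's highest value. The pools of a group differed by more than 2-fold at 49 genes (non-manipulated), 97 (Trim21 mRNA), 809 (Trim21 mRNA plus antibody) and 4615 (antibody alone). Defining genes of the 2-cell stage were present in every pool: the mean log2 level of 5 such genes (Zscan4d and Tcstv3 among them) was 10.27 to 10.50 without antibody and 11.51 to 11.69 with it. The mean over 9 maternal oocyte genes was 13.58 to 13.60 in non-manipulated pools, 12.94 to 13.21 in Trim21 mRNA pools, 13.41 to 13.70 with Trim21 mRNA plus antibody and 14.04 to 14.23 with antibody alone. With Trim21 mRNA plus antibody against Trim21 mRNA, 4 of the 5 and 4 of the 9 were called higher and 1 of the 9 lower. Of all 30701 genes 8.73% were called higher and 14.5% lower in this comparison, and 20182 had a positive difference. Of other cell types, 7 blood and 9 sperm genes lay at a mean log2 level of 4.64 to 5.18 on every array, near the array medians. The log2 of the summed level of 11 cumulus genes was 12.10 to 12.12, 11.67 to 11.74, 9.10 to 9.67 and 10.22 to 10.63 in the order of groups above, but their mean log2 level lay between 5.16 and 5.46 on every array. Against Trim21 mRNA, Trim21 mRNA plus antibody gave positive differences in 9 of the 11, with 1 called higher and 1, Amhr2, which was high enough to lead the sum, called lower. For 6 oviduct genes the log2 of the sum was 10.81 to 10.87, 10.82 to 10.95, 9.02 to 9.27 and 10.47 to 10.89, with 4 of 6 differences positive, none called higher and 1, Epcam, called lower. The arrays have no true 0, and the part of any of these lists in the results below was not tested.

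Where the antibody was added to Trim21 mRNA, most mRNAs of the exosome and of nonsense-mediated decay and both of Xrn1 and Xrn2 fell, while decapping and deadenylation genes split. The call of Xrn1 was lost in 11 of 17 alternative analyses, and that of Xrn2 in none. Against Trim21 mRNA alone, 20 of the 41 genes were lower and 1, Cnot11, was higher (limma, adjusted p under 0.05). Of all 30701 genes 23.2% were called in this comparison, 14.5% lower and 8.73% higher. The median difference of the 41 genes was −0.72 on the log2 scale, against 0.21 for all genes. By class, 9 of 11 exosome genes, 2 of 2 exonucleases of the 5′ end, 2 of 5 decapping genes, 1 of 7 LSM genes, 2 of 11 deadenylase genes and 4 of 5 genes of nonsense-mediated decay were lower.

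With antibody alone against non-manipulated embryos, 9 of the 41 genes were lower and 2, Lsm6 and Cnot4, were higher, and the median difference was −0.48 against 0.18 for all genes. Of all genes 10.0% were called, 7.29% lower and 2.76% higher. Both antibody comparisons share no array, but they take their spread from the same fit of all 8 arrays. The same 9 genes were lower in both of these comparisons: Exosc5, Exosc10, Dis3, Edc3, Lsm4, Cnot10, Upf1, Smg5 and Smg6. They made up 45% of the 20 genes lower with Trim21 mRNA present and all 9 of those lower without it. Of these 9, Lsm4 and Smg6 lost the call without Trim21 mRNA after quantile normalization. Over all genes 1917 were lower in both, which is 43.1% of those lower with Trim21 mRNA present and 85.7% of those lower without it, so the shares among the decay genes lay near those of all genes. The other 11 genes that were lower with Trim21 mRNA present (Exosc1, Exosc2, Exosc3, Exosc7, Exosc9, Dis3l, Xrn1, Xrn2, Ddx6, Cnot8 and Smg1) were not called without it, and the test of the difference between both antibody effects, given further on, called none of these 11.

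**Figure D1:**
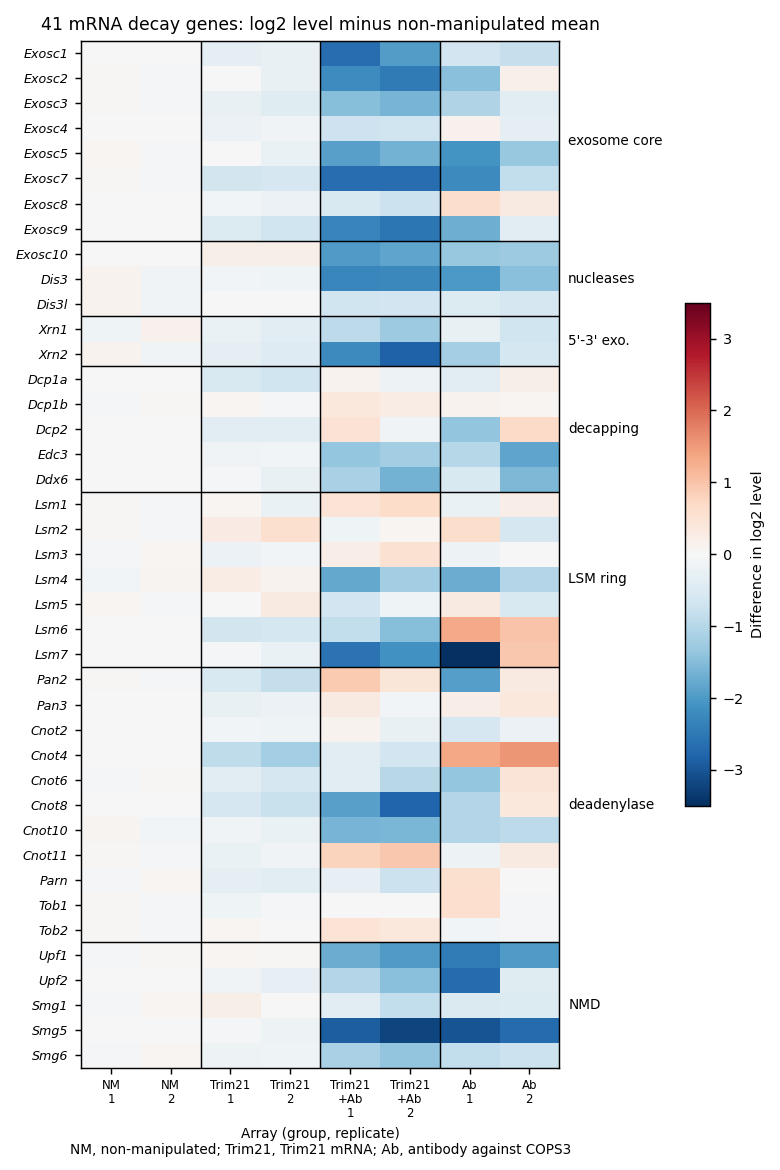
Log2 level of the 41 mRNA decay genes on each of the 8 arrays, minus the mean of the gene in non-manipulated embryos. Colour gives the difference in log2 level, red above and blue below that mean, columns are arrays and rows are genes grouped by class. The exosome rows and those of Smg5 and Upf1 are blue in the columns of Trim21 mRNA plus antibody. Most are also blue with antibody alone, where Exosc8 is red and Exosc2 and Exosc4 are faintly red in 1 column each, and the columns of antibody alone differ from each other in several rows, Lsm7 most of all.

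**Figure D2:**
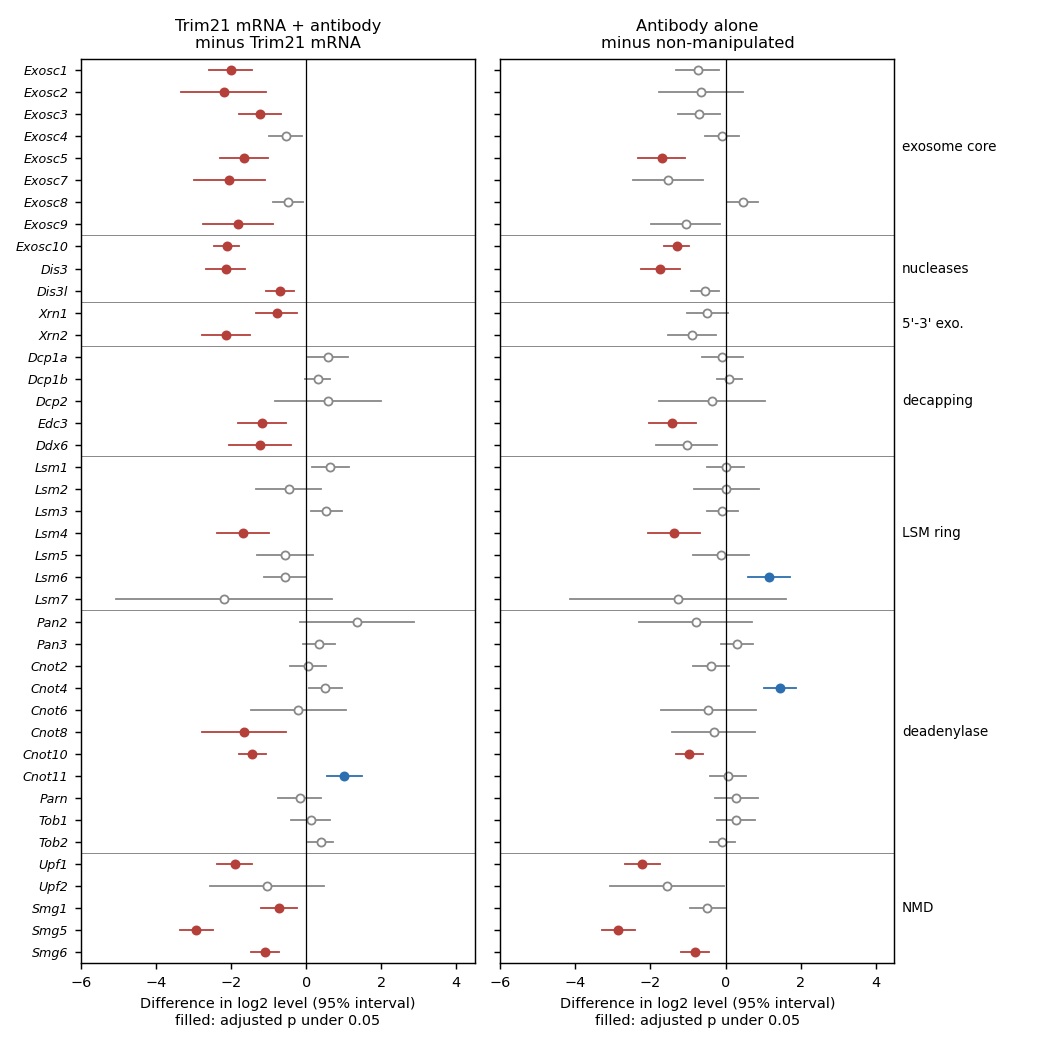
Difference in log2 level of each of the 41 genes, Trim21 mRNA plus antibody minus Trim21 mRNA on the left and antibody alone minus non-manipulated on the right, with the 95% interval of the limma fit on 2 pools per group. Filled points are called, red lower and blue higher, and open points are not called. On the left 20 points are red and 1, Cnot11, is blue, and on the right 9 are red and 2, Lsm6 and Cnot4, are blue.

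The promoters of the exosome nucleases Exosc10 and Dis3 and of Upf1, whose calls of a lower level against Trim21 mRNA held in every alternative analysis, are shown beside that of Cnot11, the gene called higher. They are the 300 bases from 250 before to 50 after the annotated transcription start in RefSeq (mouse build GRCm38.p6), written 5′ to 3′ on the strand of the gene. Capitals mark matches, on either strand, to the letters of 6 motifs that were searched: CCGGAAG (ETS core), GCGCATGC (NRF1 core), AAGATGGC (YY1 core), CCAAT (the box bound by NF-Y), CACGTG (E-box) and TATAAA (the box bound by TBP).
Exosc10, chr4:148558169-148558468, plus strand: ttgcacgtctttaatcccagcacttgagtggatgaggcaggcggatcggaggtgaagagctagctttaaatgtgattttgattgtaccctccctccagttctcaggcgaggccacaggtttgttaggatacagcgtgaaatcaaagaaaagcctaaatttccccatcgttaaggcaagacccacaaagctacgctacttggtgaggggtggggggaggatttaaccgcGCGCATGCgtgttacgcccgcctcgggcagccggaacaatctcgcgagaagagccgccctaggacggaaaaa
Dis3, chr14:99099721-99100020, minus strand: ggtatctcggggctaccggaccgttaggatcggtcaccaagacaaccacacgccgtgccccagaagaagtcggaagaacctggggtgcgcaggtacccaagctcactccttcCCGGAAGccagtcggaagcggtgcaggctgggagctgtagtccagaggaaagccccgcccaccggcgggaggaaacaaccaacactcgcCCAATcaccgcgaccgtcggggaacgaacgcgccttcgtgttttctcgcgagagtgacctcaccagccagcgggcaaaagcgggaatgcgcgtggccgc
Upf1, chr8:70353230-70353529, minus strand: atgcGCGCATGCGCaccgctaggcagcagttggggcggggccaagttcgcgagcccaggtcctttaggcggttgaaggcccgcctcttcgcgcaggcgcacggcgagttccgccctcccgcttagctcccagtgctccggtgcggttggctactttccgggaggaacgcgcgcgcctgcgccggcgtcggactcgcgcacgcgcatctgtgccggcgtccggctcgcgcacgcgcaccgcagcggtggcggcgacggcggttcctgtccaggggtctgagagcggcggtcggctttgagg
Cnot11, chr1:39535451-39535750, plus strand: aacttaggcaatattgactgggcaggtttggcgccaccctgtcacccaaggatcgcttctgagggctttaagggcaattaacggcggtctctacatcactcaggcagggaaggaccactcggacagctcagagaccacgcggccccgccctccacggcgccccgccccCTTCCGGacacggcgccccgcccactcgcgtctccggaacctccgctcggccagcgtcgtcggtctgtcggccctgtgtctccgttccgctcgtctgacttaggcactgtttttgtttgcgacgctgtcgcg
The first of these is the upstream of a pair of Exosc10 starts in the table, and it holds an NRF1 core just before the start site. The window of the other Exosc10 start, not printed here, holds no NRF1 core and 2 ETS cores on the opposite strand. The Dis3 promoter holds an ETS core and a CCAAT box, that of Cnot11 an ETS core on the opposite strand, and that of Upf1 an NRF1 core that reads on both strands, as overlapping matches.

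Of the 45 genes, 38 had a promoter in the table, 46 promoters in all. An ETS core was found in 11 of the 46 (23.9%), against 8.86% of all 32851 promoters of the same length. It occurred in 5 of 22 promoters of genes called lower against Trim21 mRNA (22.7%) and in 5 of 21 of measured genes not called lower there (23.8%). NRF1 cores were in 10.9% of the members' promoters and 2.71% of all, YY1 cores in 13% and 2.75%, CCAAT boxes in 30.4% and 37.4%, E-boxes in 6.52% and 7.15%, and TATA boxes in 2.17% and 13.6%. The members' promoters had a median GC content of 64%, against 52.7% for all, and a median of 25 CpG dinucleotides, against 7. These matches describe letters in the window and do not show binding, and GC content was not matched.

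The exosome core is a ring of subunits with RNase PH folds under a cap of RNA-binding subunits, through which RNA is threaded to the nucleases. With Trim21 mRNA plus antibody, 6 of the 8 core genes measured here were lower than with Trim21 mRNA, and the other 2, Exosc4 and Exosc8, had differences of −0.55 ± 0.19 and −0.48 ± 0.17 that were not called (adjusted p = 0.08 and 0.088). The median over the 8 was −1.74. With antibody alone against non-manipulated embryos 1 of the 8, Exosc5, was lower, and the median was −0.72.

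Exosc5, a subunit of the ring, was the core gene that fell in both comparisons. It stood at 8.05 and 7.90 in non-manipulated pools, and at 7.98 and 7.74 in Trim21 mRNA pools. With Trim21 mRNA plus antibody it stood at 6.07 and 6.33, and with antibody alone at 5.89 and 6.65. All 4 pools with antibody lay below all 4 without it. Pools apart were common: against Trim21 mRNA the 2 groups did not overlap at 23570 of all 30701 genes. For antibody alone against non-manipulated embryos this was so at 18758. These counts stand beside the like statements on other genes below, and separation of 4 pools from 4 was not counted over all genes. The differences were −1.66 ± 0.27 (adjusted p = 0.0049) with Trim21 mRNA present and −1.71 ± 0.27 (adjusted p = 0.013) without it.

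Exosc1, a subunit of the cap, was at 13.85 and 13.80 in non-manipulated pools, and at 13.49 and 13.56 in Trim21 mRNA pools. It was at 11.16 and 11.87 with Trim21 mRNA plus antibody and at 13.15 and 13.02 with antibody alone. The lowest 2 pools were those with both agents, and the pools with antibody alone lay below the antibody-free pools by less. The difference from Trim21 mRNA was −2.01 ± 0.24 (adjusted p = 0.0013), which is 4.03-fold, and that from antibody alone was −1.57 ± 0.24 (adjusted p = 0.006). The latter call was lost after quantile normalization, after loess and in the fit of only the groups compared. Antibody alone differed from non-manipulated embryos by −0.74 ± 0.24, which was not called (adjusted p = 0.11).

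Exosc7, of the ring, was at 9.44 and 9.35 in non-manipulated pools, at 8.75 and 8.81 in Trim21 mRNA pools and at 6.74 and 6.73 with Trim21 mRNA plus antibody, a difference of −2.04 ± 0.39 from Trim21 mRNA (adjusted p = 0.011). The antibody-alone pools lay apart, at 7.17 and 8.53. Exosc3, of the cap, was at 11.74 and 11.64, at 11.42 and 11.27, at 10.19 and 10.06, and at 10.64 and 11.32 in the same order of groups. Its difference from Trim21 mRNA was −1.22 ± 0.24 (adjusted p = 0.011), and antibody alone replicate 2 lay inside the range of the Trim21 mRNA pools. That call was lost after quantile normalization and after loess. Exosc2 of the cap (−2.20 ± 0.47) and Exosc9 of the ring (−1.82 ± 0.39) fell too, with adjusted p = 0.017 and 0.016. Their antibody-alone pools also stood apart, at 8.38 and 10.02 for Exosc2 and 6.97 and 8.28 for Exosc9. The calls of Exosc2, Exosc7 and Exosc9 against Trim21 mRNA were lost without any 1 array of the groups compared. In fits without 1 array their differences ran from −2.34 to −2.06, from −2.08 to −2.02 and from −1.93 to −1.71.

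Exosc8, a ring subunit, ran another way with antibody alone. It stood at 8.78 on both non-manipulated arrays and at 8.69 and 8.57 in Trim21 mRNA pools, at 8.26 and 8.03 with Trim21 mRNA plus antibody, and at 9.39 and 9.09 with antibody alone. The antibody-alone pools were thus the highest of the 8 and the pools with both agents the lowest. The latter 2 groups differed by −1.09 ± 0.17 (adjusted p = 0.0069), while antibody alone against non-manipulated embryos gave 0.46 ± 0.17, not called (adjusted p = 0.15). Exosc4 stood near the array medians, between 4.88 and 5.74 in all pools.

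The nucleases of the exosome are EXOSC10, found mainly in the nucleus, DIS3, which sits at the exit of the channel, and DIS3L, its cytoplasmic relative. All 3 genes were lower with Trim21 mRNA plus antibody than with Trim21 mRNA, with a median of −2.12, and Exosc10 and Dis3 were also lower with antibody alone than in non-manipulated embryos. Exosc10 stood at 13.16 and 13.14 in non-manipulated pools, and at 13.35 and 13.36 in Trim21 mRNA pools. It stood at 11.18 and 11.30 with Trim21 mRNA plus antibody and at 11.82 and 11.89 with antibody alone. The pools of each group lay within 0.12 of each other, and those with both agents were the lowest. The differences were −2.12 ± 0.14 (adjusted p = 0.00013) for the antibody with Trim21 mRNA, −1.29 ± 0.14 (adjusted p = 0.005) for the antibody without it, and −0.61 ± 0.14 (adjusted p = 0.029) between both antibody groups. The last of these calls was lost in 12 of 17 alternatives.

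Dis3 was at 12.34 and 12.07 in non-manipulated pools, and at 12.11 and 12.06 in Trim21 mRNA pools. With Trim21 mRNA plus antibody it was at 9.91 and 9.96, and with antibody alone at 10.19 and 10.75. All pools with antibody lay at least 1 log2 unit below all pools without it. The differences were −2.15 ± 0.22 (adjusted p = 0.00063), or 4.44-fold, and −1.74 ± 0.22 (adjusted p = 0.0067), or 3.33-fold. Dis3l moved less: it was at 8.65 and 8.39, 8.54 and 8.51, 7.82 and 7.84, and 8.03 and 7.93 in the order non-manipulated, Trim21 mRNA, Trim21 mRNA plus antibody and antibody alone. Its difference from Trim21 mRNA was −0.69 ± 0.16 (adjusted p = 0.019), but it came to −0.21 after quantile normalization, and the call was lost in 7 of 17 alternatives, loess and quantile normalization among them.

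XRN1 digests decapped mRNA in the cytoplasm and XRN2 is its nuclear relative, which also ends transcription at many genes. Both genes were lower with Trim21 mRNA plus antibody than with Trim21 mRNA, and neither was called with antibody alone against non-manipulated embryos. Xrn2 stood at 11.17 and 10.94 in non-manipulated pools, 10.73 and 10.61 in Trim21 mRNA pools, 8.83 and 8.23 with Trim21 mRNA plus antibody, and 9.87 and 10.45 with antibody alone. The pools with both agents were the lowest and did not overlap any other group. The difference from Trim21 mRNA was −2.14 ± 0.27 (adjusted p = 0.0018), that from antibody alone −1.63 ± 0.27 (adjusted p = 0.0087), and antibody alone against non-manipulated embryos gave −0.89 ± 0.27 (adjusted p = 0.091). Xrn1 was at 7.68 and 7.99, 7.60 and 7.46, 6.93 and 6.55, and 7.57 and 7.13 in the same order. Its pools with antibody alone overlapped those with Trim21 mRNA, and its difference of −0.79 ± 0.23 from Trim21 mRNA (adjusted p = 0.047) was at the threshold. It lay between −1.12 and −0.50 in the alternatives, and those that lost the call included quantile normalization, loess and the replicate block.

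**Figure D3:**
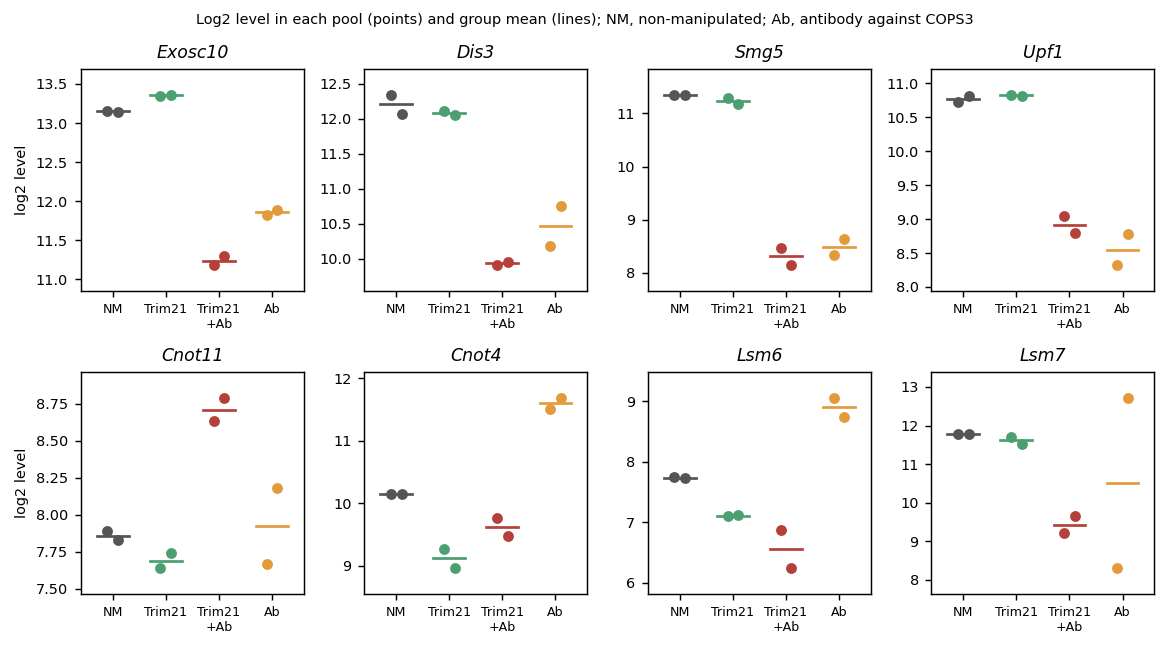
Log2 level of 8 mRNA decay genes in each pool (points) with the mean of the 2 pools (lines), for non-manipulated embryos, Trim21 mRNA, Trim21 mRNA plus antibody and antibody alone. Each panel has its own log2 axis, so levels are read within a gene. Exosc10, Dis3, Smg5 and Upf1 are low in all 4 pools with antibody, Cnot11 is highest with both agents, Cnot4 and Lsm6 are highest with antibody alone, and the antibody-alone pools of Lsm7 lie 4.42 apart.

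Decapping genes did not move as a class. The genes of the decapping enzyme itself, Dcp2, and of its activators Dcp1a and Dcp1b were called in none of the 6 comparisons, while Edc3, which encodes a scaffold that enhances decapping, and Ddx6, a helicase of P-bodies that represses translation and activates decapping, were lower with Trim21 mRNA plus antibody. The median of the 5 was 0.30 against Trim21 mRNA as deposited and −0.03 after each array was centred on its median, 0.04 after loess and 0.02 after quantile normalization.

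Edc3 stood at 6.99 and 6.94 in non-manipulated pools, 6.85 and 6.86 in Trim21 mRNA pools, 5.60 and 5.74 with Trim21 mRNA plus antibody, and 5.97 and 5.13 with antibody alone. The 4 pools with antibody were the lowest and not far above the array medians, which reached 5.29. The differences were −1.19 ± 0.27 (adjusted p = 0.02) with Trim21 mRNA present and −1.41 ± 0.27 (adjusted p = 0.023) without it. The first call was lost without any 1 array of the groups compared. The second was lost without either non-manipulated array and in the fit of only the groups compared. Ddx6 was at 10.45 and 10.43, 10.38 and 10.17, 9.30 and 8.78, and 9.92 and 8.88 in the same order. Its pools with antibody were also the lowest, but the antibody-alone pools spread over more than 1 log2 unit, and of the 2 antibody effects −1.24 ± 0.35 (adjusted p = 0.044) was called and −1.04 ± 0.35 (adjusted p = 0.11) was not. The call of Ddx6 against Trim21 mRNA was lost in 9 of 17 alternatives, quantile normalization and loess among them. Dcp2 was at 10.90 and 10.27 with Trim21 mRNA plus antibody against 10.03 and 9.99 in Trim21 mRNA pools, and its antibody-alone pools, at 9.01 and 11.06, were the lowest and the highest of the 8.

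The LSM ring is made of LSM1 to LSM7, binds the 3′ end of deadenylated mRNA and activates decapping, and all but LSM1 also belong to a nuclear ring on U6 RNA. Of its 7 genes Lsm4 was lower in both antibody comparisons, Lsm6 was higher with antibody alone, and Lsm1, Lsm2, Lsm3, Lsm5 and Lsm7 were called in no comparison. Lsm4 stood at 9.50 and 9.69 in non-manipulated pools, and at 9.85 and 9.71 in Trim21 mRNA pools. It stood at 7.80 and 8.39 with Trim21 mRNA plus antibody and at 7.86 and 8.58 with antibody alone. The pools with antibody lay below all others, by −1.69 ± 0.29 (adjusted p = 0.0069) with Trim21 mRNA present and −1.38 ± 0.29 (adjusted p = 0.032) without it. Both calls were lost after quantile normalization. The call without Trim21 mRNA was also lost after loess and in the fit of only the groups compared.

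Lsm6 was the 1 gene of the 41 whose antibody effect differed with and without Trim21 mRNA by the interaction test. It was at 7.75 and 7.73 in non-manipulated pools, and at 7.10 and 7.12 in Trim21 mRNA pools. It was at 6.87 and 6.24 with Trim21 mRNA plus antibody, the lowest pools, and at 9.06 and 8.74 with antibody alone, the highest. With antibody alone it was higher than in non-manipulated embryos by 1.16 ± 0.23 (adjusted p = 0.027), while with Trim21 mRNA present the antibody effect was −0.55 ± 0.23, not called (adjusted p = 0.13). The difference between both effects was −1.72 ± 0.33 (adjusted p = 0.039), and Trim21 mRNA plus antibody lay below antibody alone by −2.35 ± 0.23 (adjusted p = 0.0012). The interaction call was lost in 9 of 16 alternatives, and its value stayed between −2.03 and −1.40 in them. It was lost without either non-manipulated array, without either Trim21 mRNA array and without Trim21 mRNA plus antibody replicate 2.

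Deadenylase genes split. PAN2 and PAN3 start the shortening of the tail and CCR4-NOT finishes it, with CNOT6 and CNOT8 among its catalytic subunits, CNOT2, CNOT10 and CNOT11 as structural subunits and CNOT4 as an associated ubiquitin ligase. PARN is another deadenylase, and TOB1 and TOB2 bring CCR4-NOT to mRNAs. Of these 11 genes Cnot8 and Cnot10 were lower and Cnot11 higher with Trim21 mRNA plus antibody than with Trim21 mRNA, and Cnot10 was lower and Cnot4 higher with antibody alone than in non-manipulated embryos. Pan2, Pan3, Cnot2, Cnot6, Parn, Tob1 and Tob2 were called in no comparison. The median of the class against Trim21 mRNA was 0.12 as deposited, −0.22 after centring, with 0 higher and 1 lower, and 0.54 after quantile normalization, with 6 higher and 1 lower, so its direction depends on the scaling.

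Cnot10 stood at 8.79 and 8.62 in non-manipulated pools, 8.59 and 8.47 in Trim21 mRNA pools, 7.08 and 7.10 with Trim21 mRNA plus antibody, and 7.68 and 7.80 with antibody alone. The groups with antibody lay below the others and the pools with both agents were the lowest. The differences were −1.44 ± 0.15 (adjusted p = 0.00073) with Trim21 mRNA present and −0.96 ± 0.15 (adjusted p = 0.012) without it. Cnot11, whose product binds CNOT10, ran the opposite way: it was at 7.89 and 7.83, 7.64 and 7.74, 8.63 and 8.79, and 7.67 and 8.18 in the same order. The pools with both agents were the highest, 1.02 ± 0.20 above Trim21 mRNA (adjusted p = 0.012) and 0.79 ± 0.20 above antibody alone (adjusted p = 0.043). The first of these calls was lost after centring and when either Trim21 mRNA array or replicate 2 of Trim21 mRNA plus antibody was left out. The second was lost in 11 of 17 alternatives, centring, the replicate block and the absence of any 1 array outside the antibody-alone group among them.

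Cnot8 was at 13.97 and 13.95 in non-manipulated pools, 13.38 and 13.18 in Trim21 mRNA pools, 12.07 and 11.19 with Trim21 mRNA plus antibody, and 12.94 and 14.34 with antibody alone. The pools with both agents were the lowest and the antibody-alone pools enclosed all antibody-free ones. The difference from Trim21 mRNA was −1.65 ± 0.47 (adjusted p = 0.046), and that call was lost in 10 of 17 alternatives, the 3 other scalings and the replicate block included, with −0.79 as the smallest difference. That from antibody alone was −2.01 ± 0.47 (adjusted p = 0.032), between −2.71 and −1.31 when 1 antibody-alone array was left out, the second without replicate 2, and its call was lost without either non-manipulated or Trim21 mRNA array and without replicate 2 of Trim21 mRNA plus antibody. Cnot4 stood at 10.15 on both non-manipulated arrays, at 9.27 and 8.96 in Trim21 mRNA pools, at 9.77 and 9.48 with Trim21 mRNA plus antibody and at 11.51 and 11.69 with antibody alone. No 2 groups overlapped, and antibody alone was the highest, 1.45 ± 0.18 above non-manipulated embryos (adjusted p = 0.0068), while Trim21 mRNA plus antibody differed from it by −1.98 ± 0.18 (adjusted p = 0.00097).

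In nonsense-mediated decay the helicase UPF1 is phosphorylated by the kinase SMG1, and SMG5 and the endonuclease SMG6 then bind it. With Trim21 mRNA plus antibody 4 of the 5 genes were lower than with Trim21 mRNA (median −1.09), and with antibody alone 3 of the 5 were lower than in non-manipulated embryos (median −1.56). Smg5 fell by the most of the 41 genes in both comparisons. It stood at 11.35 and 11.34 in non-manipulated pools, and at 11.30 and 11.17 in Trim21 mRNA pools. It stood at 8.47 and 8.14 with Trim21 mRNA plus antibody and at 8.33 and 8.64 with antibody alone. The pools with antibody formed 1 range, well below the other 4, with differences of −2.93 ± 0.19 (7.62-fold, adjusted p = 0.00011) and −2.86 ± 0.19 (7.26-fold, adjusted p = 0.0018).

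Upf1 was at 10.73 and 10.82 in non-manipulated pools and 10.83 and 10.82 in Trim21 mRNA pools. It was at 9.04 and 8.80 with Trim21 mRNA plus antibody and at 8.32 and 8.78 with antibody alone. The 4 pools with antibody were the lowest, and in this gene antibody alone was the lowest group. The differences were −1.91 ± 0.20 (adjusted p = 0.0007) and −2.23 ± 0.20 (adjusted p = 0.0029), and both antibody groups differed by 0.37 ± 0.20, not called (adjusted p = 0.28).

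Smg6 stood at 8.06 and 8.21 in non-manipulated pools, 7.97 and 7.98 in Trim21 mRNA pools, 7.01 and 6.75 with Trim21 mRNA plus antibody, and 7.26 and 7.38 with antibody alone. All pools with antibody were below all others, by −1.09 ± 0.16 (adjusted p = 0.0033) and −0.81 ± 0.16 (adjusted p = 0.025). The second of these calls was lost after quantile normalization, with the trended robust prior and with the replicate block. It was also lost at the 2-fold threshold and in the fit of only the groups compared. Smg1 was at 10.30 and 10.43, 10.58 and 10.35, 9.97 and 9.51, and 9.87 and 9.89 in the same order. Its difference from Trim21 mRNA was −0.72 ± 0.20 (adjusted p = 0.04) as deposited and 0.0084 after quantile normalization, where it was not called. That call of Smg1 was lost in 10 of 17 alternatives, loess and the replicate block among them. Upf2, which encodes the partner that joins UPF1 to the exon junction complex, was called nowhere, and its antibody-alone pools stood at 6.72 and 8.99.

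Adding Trim21 mRNA to the antibody gave fewer calls among these genes. Trim21 mRNA plus antibody against antibody alone called 8 lower and 1 higher, where 14.8% of all genes were called (10.5% lower, 4.37% higher), with a median difference of −0.27 against 0.04 for all genes. The lower genes were Exosc1, Exosc8, Exosc10, Xrn2, Lsm6, Cnot4, Cnot8 and Cnot10, and the higher gene was Cnot11. No gene of decapping or of nonsense-mediated decay was called. The median over all 41 genes came to −0.05 after quantile normalization, 0.0037 after loess and −0.44 after centring. The calls of Lsm6 and Cnot4 held in every alternative, and a fit of only the groups compared kept no other call. Without 1 array the difference of Exosc1 ran from −1.93 to −1.22 and that of Exosc8 from −1.25 to −0.945. The call of Exosc1 was lost after quantile normalization and after loess. Those of Exosc10, Cnot8 and Cnot10 were lost in the same 2 scalings and with the replicate block, and that of Cnot11 after centring and with the block.

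Trim21 mRNA by itself brought no gene of the decay machinery past the threshold. Against non-manipulated embryos limma called 0 of the 41, with 1 of all 30701 genes called (0.00326%), Trim21 itself. The median difference was −0.16, against 0.04 for all genes, and 32 of the 41 differences were negative. At an unadjusted p under 0.05 there were 3 genes, all with negative differences. A fit of these 2 groups alone called 8.20% of all genes (5.34% lower, 2.87% higher), and 7 of the 41 were lower: Cnot4 (−1.03, adjusted p = 0.0259), Pan2 (−0.69), Cnot8 (−0.68), Lsm6 (−0.63), Exosc7 (−0.61), Dcp1a (−0.61) and Exosc9 (−0.59). These 2 groups have the closest pools, and the fit of all 4 groups shares the wider spread of the antibody groups.

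The sum of both steps, Trim21 mRNA plus antibody against non-manipulated embryos, shares arrays with the comparisons above. It called 22 genes lower and 1 higher (Cnot11), where 31.7% of all genes were called (16.6% lower, 15.1% higher), with a median of −1.09 against 0.24 for all genes. All 11 exosome genes were lower, with a median of −1.91 and a range from −2.66 (Exosc7) to −0.64 (Exosc8). After quantile normalization and after loess 9 of the 11 were lower, and the calls of Exosc8 and Dis3l were lost, at 0.0044 and −0.10 after quantile normalization. The call of Exosc4 was lost in 8 of 16 alternatives, the replicate block and 6 of the 8 fits without 1 array among them. The interaction, the antibody effect with minus without Trim21 mRNA, called 1 of the 41 genes, Lsm6, and 4.08% of all genes (0.625% higher, 3.46% lower). Its median standard error over all genes was 0.31, against 0.219 for the other comparisons.

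The antibody-alone pools differed from each other more than those of any other group. Of the 41 genes, 11 lay more than 1 log2 unit apart between the antibody-alone pools and none did so between the pools of any other group. They were Exosc2, Exosc7, Exosc9, Dcp2, Ddx6, Lsm2, Lsm7, Pan2, Cnot6, Cnot8 and Upf2, of which 9 were lower in replicate 1 and 2, Ddx6 and Lsm2, in replicate 2. Lsm7 was the widest: it stood at 11.77 and 11.78 in non-manipulated pools, 11.70 and 11.53 in Trim21 mRNA pools, 9.20 and 9.66 with Trim21 mRNA plus antibody, and 8.30 and 12.72 with antibody alone. The median distance between pools was 0.06 in non-manipulated pools, 0.12 in Trim21 mRNA pools, 0.28 with Trim21 mRNA plus antibody and 0.53 with antibody alone. Replicate 1 of antibody alone is also the array of that group with many clusters at its highest value. Against the non-manipulated mean 31 of the 41 genes were below it in replicate 1, 25 in replicate 2 and 21 in both.

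**Figure D4:**
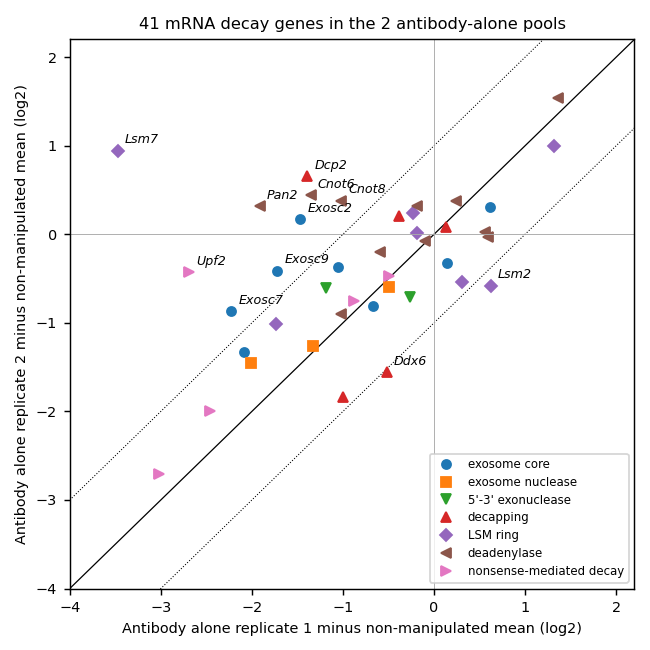
Log2 level of the 41 genes minus the non-manipulated mean in antibody alone replicate 1 (horizontal axis) and replicate 2 (vertical axis), by class. The solid line marks equal values and the dotted lines a distance of 1 log2 unit, and the 11 genes beyond them are named, Lsm7 farthest out.

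Counts moved with which array was left out. Against Trim21 mRNA, the 21 calls became 9 or 10 without Trim21 mRNA replicate 1 or 2, 10 without replicate 2 and 14 without replicate 1 of Trim21 mRNA plus antibody, and 32 without either antibody-alone array. The calls of Exosc1, Exosc5, Exosc10, Dis3, Xrn2, Cnot10, Upf1, Smg5 and Smg6 held without any 1 array and in every other alternative. For antibody alone, the 11 calls became 1 or 2 without non-manipulated replicate 1 or 2, 7 without either Trim21 mRNA array, and 27 without antibody alone replicate 2. A fit of only these 2 groups called 0 of them and 0 of all genes, and the call of Smg5 alone held without any 1 array.

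Under each scaling run the exosome, 5′ exonuclease and nonsense-mediated decay medians stayed below 0 against Trim21 mRNA and for antibody alone, while the classes did not all shift the same way. The exosome median against Trim21 mRNA was −1.82 as deposited with 9 of 11 lower, −2.15 after centring with 11 lower, −1.39 after loess with 8 lower and −1.29 after quantile normalization with 8 lower. Among all 41 genes the split was 1 higher and 20 lower as deposited, 0 and 22 after centring, 6 and 15 after loess and 7 and 14 after quantile normalization, with the added higher genes mostly in the deadenylase class. Over all genes it was 2679 higher and 4447 lower, 876 and 5364, 2891 and 3803, and 3212 and 3786.

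**Figure D5:**
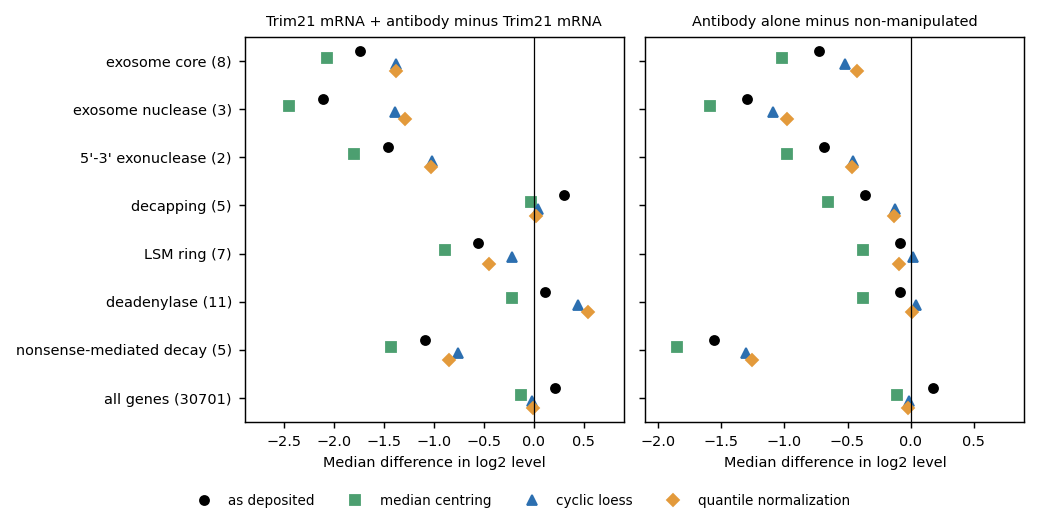
Median difference in log2 level of each class of mRNA decay genes (number of genes in brackets) and of all genes, for Trim21 mRNA plus antibody minus Trim21 mRNA (left) and antibody alone minus non-manipulated (right), as deposited and under 3 other scalings. The exosome, 5′ exonuclease and nonsense-mediated decay classes lie left of 0 under each scaling, and the decapping and deadenylase medians lie on either side of 0 on the left.

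The median over all genes fell with their level, and above 6 on the log2 scale it was negative as for the decay genes. From 4 to 6 the median difference was 0.30 for all 16714 genes and 0.30 for 3 decay genes. Against Trim21 mRNA, the median difference of all 3308 genes with a mean log2 level from 8 to 10 was −0.60, and that of the 15 decay genes in that range was −1.04. From 10 to 12 the medians were −0.75 for all genes and −0.97 for 8 decay genes, and from 12 to 14 they were −1.05 and −1.65 for 5. From 6 to 8 they were −0.09 and −0.68 for 10. For antibody alone against non-manipulated embryos, the medians of all genes and of the decay genes were 0.275 and 0.005 from 4 to 6. They were −0.13 and −0.30 from 6 to 8, and −0.325 and −0.65 from 8 to 10. From 10 to 12 they were −0.378 and −0.755, and from 12 to 14 −0.39 and −0.395. The part of level in the falls was not tested.

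Other genes of the pathway, from a list made by function, moved both ways. Of 65 measured, 14 were higher and 16 lower with Trim21 mRNA plus antibody than with Trim21 mRNA (median 0.09), 46.2% called against 23.2% of all genes. With antibody alone against non-manipulated embryos 6 were higher and 8 lower (median −0.01), 21.5% against 10.0%. Of 4 poly(A)-binding protein genes, 3 fell against Trim21 mRNA: Pabpc1, the main cytoplasmic form (−2.76 ± 0.18, adjusted p = 0.00011), Pabpn1, the nuclear form (−1.28 ± 0.18), and Pabpc4 (−1.02 ± 0.15). The oocyte and embryo form Pabpc1l rose by 1.34 ± 0.33 (adjusted p = 0.027), and it was also higher with antibody alone (1.34 ± 0.33, adjusted p = 0.049).

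Of 18 factors that recruit the decay enzymes, 4 rose and 4 fell against Trim21 mRNA (44.4% called). Ago2, the slicing Argonaute protein of small RNA silencing, fell by the most, at 11.24 and 11.33 in non-manipulated pools, 11.80 and 11.55 in Trim21 mRNA pools, 8.35 and 8.69 with Trim21 mRNA plus antibody, and 8.74 and 9.02 with antibody alone. Its differences were −3.15 ± 0.19 (adjusted p = 0.0001) and −2.40 ± 0.19 (adjusted p = 0.0023). Rc3h2, a roquin protein that binds stem-loops, fell by 2.46 on the log2 scale (adjusted p = 0.00094). Zfp36l2, which binds AU-rich elements and recruits CCR4-NOT, rose by 0.94 ± 0.17 (adjusted p = 0.0077).

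Of 12 exosome cofactors 3 fell and 1 rose against Trim21 mRNA (33.3% called). Tent4b, a polymerase that tags nuclear RNA for the exosome, differed by −1.49 ± 0.22 (adjusted p = 0.0032), Mtrex, the helicase of the nuclear exosome, by −2.74 ± 0.60 (adjusted p = 0.018), and Wdr61, of the SKI complex of the cytoplasmic exosome, by −1.77 ± 0.47 (adjusted p = 0.035). Rbm7, of the nuclear exosome targeting complex, was higher by 0.93 ± 0.21 (adjusted p = 0.02). Among 5 exon junction genes Rbm8a, a core subunit (−3.23 ± 0.36, adjusted p = 0.00093), and Casc3 (−1.37 ± 0.18, adjusted p = 0.0023) fell, and Casc3 was lower with antibody alone too (−1.56 ± 0.18, adjusted p = 0.006). Smg8, a regulator of SMG1, differed by −2.77 ± 0.23 (adjusted p = 0.00031) and −1.25 ± 0.23 (adjusted p = 0.022) in both antibody comparisons.

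Of 7 genes of 3′ tailing 2 rose and 2 fell. Tent2, a cytoplasmic poly(A) polymerase, rose by 1.01 ± 0.14 (adjusted p = 0.0025) with Trim21 mRNA present and by 1.35 ± 0.14 (adjusted p = 0.0044) without it, and Tut4, a uridylyl transferase, fell by 0.95 on the log2 scale (adjusted p = 0.01). Of 10 further genes listed with decapping and P-bodies, Patl2 (0.86 ± 0.14, adjusted p = 0.0053) and Lsm14a (0.96 ± 0.21, adjusted p = 0.019) were higher and none was lower. The share called, 20%, was near the 23.2% of all genes. Among genes of deadenylation outside the 45, Cnot6l was higher in both comparisons (1.38 ± 0.21 and 0.98 ± 0.21), Cnot7 was called without Trim21 mRNA (0.22 ± 0.24 with it and 1.14 ± 0.24 without) and Btg4 with it (0.93 ± 0.19 and 0.42 ± 0.19). The interaction test called neither Cnot7 nor Btg4 (adjusted p = 0.26 and 0.49). Of 4 BTG genes, 2 were higher and 1, Btg3, was lower against Trim21 mRNA (75% called). Btg3 differed by −2.595, and with antibody alone 0 of the 4 were called.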

How the data were processed

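The authors deposited 1 table of log2 values for 65956 transcript clusters on 8 arrays. Per the submitters' processing notes it was made with Affymetrix Expression Console. How levels were summarised and scaled is not given in the sources used here. Per the labels, RNA was labelled with a GeneChip WT Pico kit. The deposited column of non-manipulated replicate 1 is log2 except for 1 cell that holds another kind of number, and that cluster was left out. Symbols came from the platform annotation, 1135 of them updated: 31257 clusters named 1 gene, 1492 several and 33206 none.

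Values were used as deposited, with no filter. limma 3.58.1 (R 4.3.3) fitted 4 group means to all 8 arrays (lmFit, eBayes, two-sided), with 4 residual and 6.83 total degrees of freedom, and p was adjusted by Benjamini-Hochberg over 30701 genes within each of 6 comparisons. Genes with an adjusted p under 0.05 were called. Differences are given ± the standard error of the fit, with n = 2 pools a group. Same-numbered pools did not deviate together (correlations of −0.191 to 0.143), so numbers were not used as pairs. The fit was tested on simulated data that had the same spread in every group. That test does not cover the wider spread between pools of the antibody groups. Alternatives were 3 other scalings, a filter on levels under 6, a trended robust prior, averaging the clusters of a gene, only the groups compared, a 2-fold threshold, a replicate block and each array left out. Arrays give no read depth, and their number limits the precision. The genes and lists were chosen with earlier results of these data known. Values of every array are given for called genes, at most 4 per class and comparison by the smallest p, and other pathway genes were named by the same count per list. RefSeq promoters come from GRCm38.p6.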

Additional observations from a re-analysis of the deposited data

Results flagged for a closer look

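The effect of the antibody differed with and without Trim21 mRNA, by limma's interaction test, for 1 of the 41 decay genes (2.44%). The same held for 3 of 65 other genes of the pathway (4.62%). Of all genes 4.08% were called, so both shares lay near that of all genes. For Lsm6, of the LSM ring, the antibody effect with Trim21 mRNA minus that without it was −1.72 on the log2 scale (adjusted p = 0.0392). For Btg3, of the BTG family that binds deadenylases, it was −2.89, with pools at 10.75 and 10.02 with Trim21 mRNA plus antibody against 12.78 and 13.44 with antibody alone. This cluster is annotated to Btg3 alone, and a second one, shared with Gm7334, was not tested and stood at 10.46 and 10.14 against 12.06 and 12.37, so which copy each reads is uncertain. For Btg2, of the same family, it was 1.38, with pools at 6.41 and 6.55 against 5.20 and 5.38. For Pabpc1, the main cytoplasmic poly(A)-binding protein, it was −1.56, with pools at 10.95 and 10.63 against 12.52 and 12.75. In each of the last 3 genes the pools of both groups did not overlap, which was so for 14030 of all 30701 genes.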

How the results depend on the processing

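The counts of called genes among the 41 were 21, 11, 0, 9, 23 and 1 in 6 comparisons: both agents against Trim21 mRNA, antibody alone against no manipulation, Trim21 mRNA against no manipulation, both agents against antibody alone, both against no manipulation, and the interaction. A fit of only the groups compared gave 0 for antibody alone, 7 for Trim21 mRNA and 2 for Trim21 mRNA plus antibody against antibody alone. With the replicate number as a block the counts were 18, 10, 0, 5, 22 and 0. The interaction count was also 0 after centring and with the trended robust prior. The causes were not tested. Without 1 array the counts ran from 9 to 32, 1 to 27, 0 to 0, 4 to 25, 12 to 32 and 0 to 13. The remaining alternatives kept each count within 1.5 times.

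Of the 246 differences (41 genes in 6 comparisons), 79 turned sign in at least 1 alternative. In 8 of them a call stood on one side of the turn, and only those are given here. After quantile normalization, Smg1 against Trim21 mRNA came to 0.0084, and against non-manipulated embryos Exosc8 came to 0.0044, Dcp1a to 0.957 and Cnot2 to 0.913 with Trim21 mRNA plus antibody. After loess the latter 2 were 0.663 and 0.645. Leaving out antibody alone replicate 1 or replicate 2, Lsm7 came to 0.945 or −3.48 for antibody alone, to −3.29 or 1.13 for both agents against antibody alone, and to −3.13 or 1.29 in the interaction. Upf2 against antibody alone came to −0.82 without that group's replicate 1.

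With 2 pools of the same day in each group no p covers a difference between days, and no control antibody separates loss of COPS3 from an injected antibody. On 3 arrays the highest levels stop at a shared value.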

Other observations

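The 3 decay genes whose clusters also name another gene were not tested. The cluster of Cnot1, the scaffold of CCR4-NOT (shared with Gm6158), stood at 14.59 and 14.63 in non-manipulated pools, 14.56 and 14.31 in Trim21 mRNA pools, 12.17 and 11.68 with Trim21 mRNA plus antibody, and 12.15 and 13.30 with antibody alone. All 4 pools with antibody lay below the other 4. The cluster of Cnot3, another CCR4-NOT subunit (shared with the microRNA gene Mir3572), stood at 10.25 and 10.24, 10.23 and 10.25, 11.96 and 11.16, and 10.63 and 10.72 in the same order, so the pools with antibody were the highest. The cluster of Edc4, a decapping scaffold (shared with Nrn1l), stood at 8.93 and 8.94, 8.60 and 8.43, 8.56 and 8.20, and 6.56 and 8.50, with antibody alone replicate 1 the lowest.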
